A study of Mus musculus with 20 samples.

Results

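The erythropoietin receptor and the genes around its signal were followed here: Epor, the kinase gene Jak2, the transcription factor genes Stat5a and Stat5b, the inhibitor genes Cish, Socs1, Socs2 and Socs3, and the kinase gene Pim1. These 9 genes were taken by symbol from the 24315 genes of 2 deposited tables of RNA levels, 1 for LSK cells (Lin- Sca1+ Kit+, the stem and multipotent progenitor gate) and 1 for MEP cells (Lin- Sca1- Kit+ CD34- FcgRII/III low or negative, the megakaryocyte-erythroid progenitor gate), both sorted from mouse bone marrow (BM). All mice were C57BL/6. The groups were wild type (WT, 3 mice whose targeted genes were left intact), Dnmt3a-/- (3 mice), Bcor-/- (2 libraries per cell type, 1 of them labelled with 2 mouse numbers) and Bcor-/-Dnmt3a-/- (double knockout, 2 mice). By the labels, LSK and MEP of a replicate number came from the same mouse, or from the same 2 mouse numbers for that Bcor-/- replicate, which is counted as 1 mouse below. The knockouts were conditional, with Mx1-Cre induced by pIpC, a switch that acts in cells that respond to interferon and not in blood cells alone, and the Bcor allele lost part of its exons. The labels give no age and no disease stage, while the study calls the double knockout mice of its RNA-seq leukemic, so genotype and disease cannot be told apart in these libraries.

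Erythropoietin binds EPOR on erythroid progenitors, and the receptor, which has no kinase of its own, works through bound JAK2. JAK2 phosphorylates the receptor and STAT5A and STAT5B, which move to the nucleus and raise the transcription of survival genes such as Bcl2l1 and Pim1 and of the inhibitors CIS and SOCS. CIS and the SOCS proteins then bind the receptor or JAK2 and damp the signal, so that their RNA is widely read as a trace of recent cytokine signalling. Other receptors that use JAK2 or STAT5, among them those for interleukins, reach the same target genes.

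Levels are given as FPKM (fragments scaled to transcript length and to the mapped fragments of the library), a unit per transcript length. Values under 0.2 FPKM formed steps of single fragments, and from these steps the deepest LSK library held 1.67 times the fragments of the shallowest, and the deepest MEP library 1.61 times. The total fragments per library are not given in the sources used here. All 9 genes passed the minimum mean of 1 FPKM in LSK, and 8 of 9 passed it in MEP, where Socs1 lay below it and was not tested. Dnmt3a RNA was 10.4 and 10.9 FPKM in double knockout LSK and 11.3 to 16.9 in Dnmt3a-/- LSK, against 16.1 to 19.8 in WT LSK. Bcor RNA was 24.0 and 37.4 FPKM in double knockout LSK and 22.4 and 23.2 in Bcor-/- LSK, against 29.5 to 32.4 in WT. An FPKM of the whole gene also counts exons that a deletion leaves, so neither gene's level is a check of its deletion. The 2 double knockout libraries stood apart from each other, with r = 0.849 in LSK and 0.815 in MEP across genes, while replicates of the other genotypes had r of at least 0.973 and 0.971. For this reason the double knockout values of the 9 genes are given for each mouse. For some genes of the wider list only the log2 fold change of the group is given.

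Promoter windows of 280 bases, from 250 bases before the annotated start to the first 30 bases after it, were read from RefSeq's annotation of GRCm38.p6 for 8 of the 9 genes (11 windows). They were searched for TTCNNNGAA, the letters that STAT5 binds and that read alike on both strands, and for GATAA on both strands, the core that GATA factors bind. TTCNNNGAA was found in 2 genes, Cish and Socs3, and GATAA in 2, Cish and Epor. Of all 32817 windows of this length, 7.83% held TTCNNNGAA, 0.408% held it at least 2 times, and 24.4% held GATAA. The windows of these 3 genes are shown because they hold a match, 5′ to 3′ on the gene's strand. Capitals mark the matches (TTATC is GATAA on the other strand). Pim1, the member whose levels followed those of Cish and Socs3 most closely, held neither motif in its 2 windows.
Cish, chr9:107296409-107296688, plus strand: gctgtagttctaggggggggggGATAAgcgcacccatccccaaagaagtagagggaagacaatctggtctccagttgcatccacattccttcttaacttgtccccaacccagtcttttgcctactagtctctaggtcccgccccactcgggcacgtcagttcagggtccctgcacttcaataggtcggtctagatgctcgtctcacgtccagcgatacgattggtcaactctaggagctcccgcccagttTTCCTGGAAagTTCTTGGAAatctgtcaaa
Socs3, chr11:117969337-117969616, minus strand: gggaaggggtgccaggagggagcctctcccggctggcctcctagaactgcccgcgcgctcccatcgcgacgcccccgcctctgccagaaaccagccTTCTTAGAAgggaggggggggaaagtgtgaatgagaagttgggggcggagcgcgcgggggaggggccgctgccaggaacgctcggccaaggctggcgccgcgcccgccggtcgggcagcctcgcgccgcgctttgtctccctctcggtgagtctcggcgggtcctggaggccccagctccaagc
Epor, chr9:21963547-21963826, minus strand: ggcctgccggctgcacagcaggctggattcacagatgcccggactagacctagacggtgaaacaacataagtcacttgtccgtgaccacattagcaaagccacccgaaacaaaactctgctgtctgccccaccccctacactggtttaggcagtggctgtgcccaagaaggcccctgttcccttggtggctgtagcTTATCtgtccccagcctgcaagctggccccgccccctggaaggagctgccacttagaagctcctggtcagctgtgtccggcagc
The 2 matches of Cish lie at bases 251 to 259 and 262 to 270 of the window, which begin at the annotated start and 11 bases after it. The match of Socs3 lies at bases 97 to 105, and that of Epor at bases 197 to 201. A match says only that these letters are present.

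Epor RNA rose in LSK of both genotypes that lack Bcor. It was 2.99, 3.69 and 5.11 FPKM in the 3 WT LSK libraries and 4.01, 2.79 and 4.11 FPKM in Dnmt3a-/-. In Bcor-/- it was 10.6 and 19.1 FPKM, and in the double knockout 26.5 and 17.4 FPKM. Every Bcor-/- and double knockout library thus lay above every WT and Dnmt3a-/- library, while the 2 Bcor-null genotypes overlapped each other. Against WT the log2 fold change of FPKM + 1 was 2.21 in the double knockout (SE 0.29, adjusted p = 0.000715) and 1.65 in Bcor-/- (SE 0.29, adjusted p = 0.0201), and Epor kept its call under each alternative tried for both comparisons. In Dnmt3a-/- the log2 fold change was -0.08 (SE 0.26, adjusted p = 1). The double knockout was higher than Bcor-/- by 0.56 on the log2 scale (95% interval -0.17 to 1.29, adjusted p = 0.215), a difference that was not called. In bulk RNA, fewer cells of a type and less RNA per cell cannot be told apart, and the same holds for more cells and more RNA per cell.

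In MEP the receptor was abundant in every genotype. Epor stood at 90.8, 115 and 78.0 FPKM in the WT mice, at 86.6, 119 and 108 in the Dnmt3a-/- mice and at 92.3 and 92.1 in the Bcor-/- libraries, which all overlapped. The double knockout MEP libraries were 38.9 FPKM in replicate 1, below all others, and 95.6 FPKM in replicate 2, within the WT range. Their log2 fold change of -0.61 (SE 0.33, adjusted p = 0.189) was not called, and it was 0.03 without replicate 1 and -1.24, then called, without replicate 2. The effect of the double knockout on Epor differed between LSK and MEP by 2.82 on the log2 scale (SE 0.80, adjusted p = 0.0376), tested on the within-mouse differences. For Bcor-/- the same difference was 1.67 (SE 0.80, adjusted p = 0.311) and was not called. Set side by side, from tables deposited and normalised separately, the MEP level of Epor was 15.3 to 31.3 times the LSK level in the WT mice, 8.69 and 4.83 times in the Bcor-/- replicates, and 1.47 and 5.49 times in the double knockout mice.

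**Figure D1:**
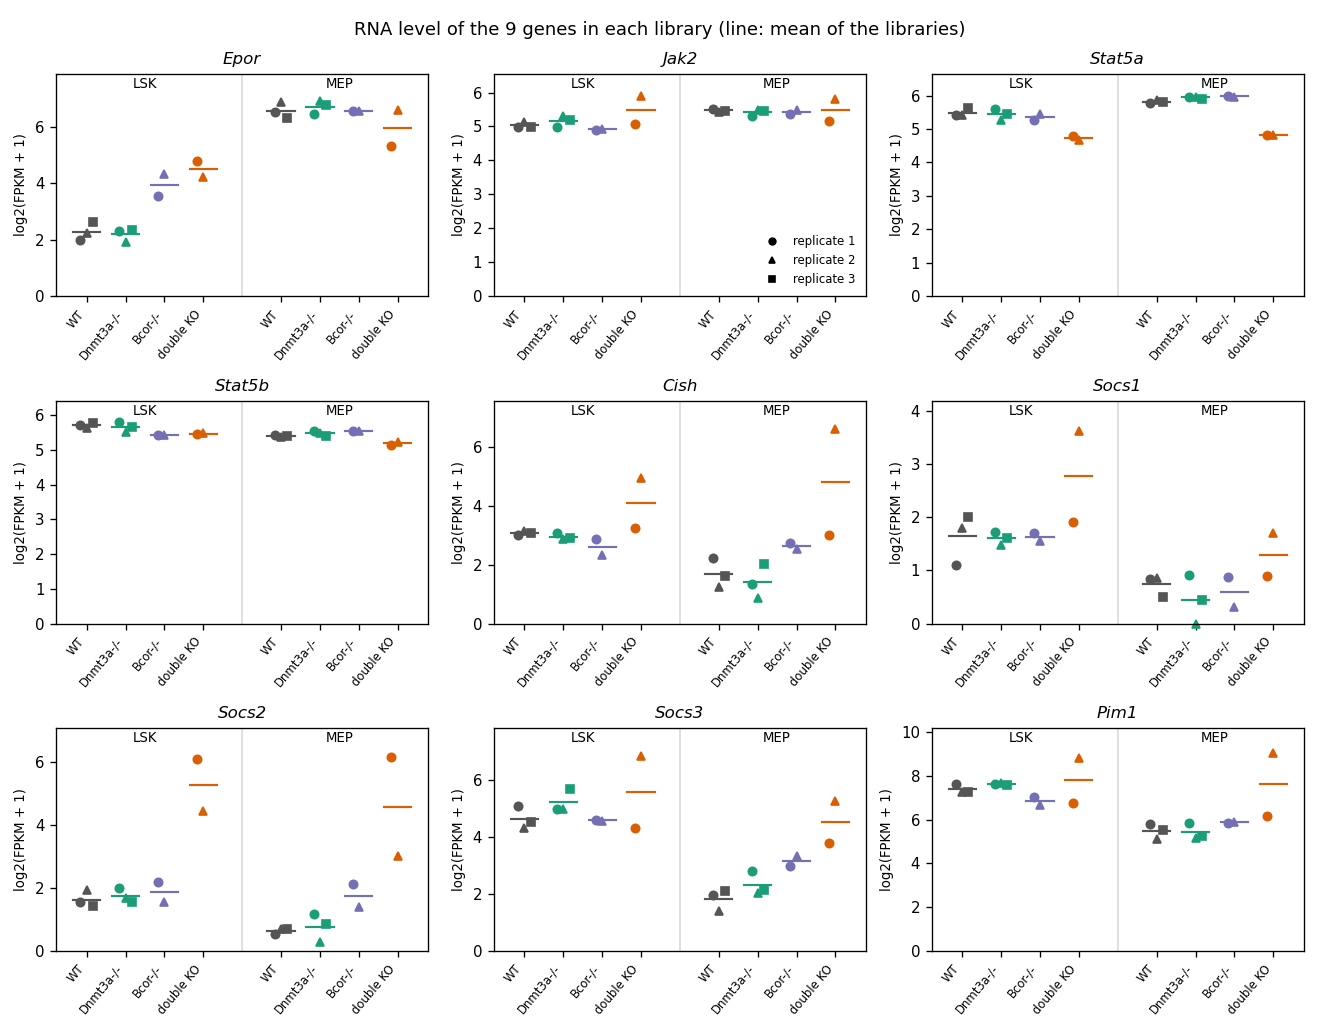
RNA level of each of the 9 genes as log2(FPKM + 1) in every library of the 4 genotypes, LSK on the left and MEP on the right of each panel, with one marker shape per replicate number and a line at the mean. In LSK, Epor is above WT in all 4 libraries that lack Bcor, while Cish, Socs1, Socs3 and Pim1 are highest in double knockout replicate 2 in both cell types and Socs2 is highest in replicate 1.

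Erythroid markers moved with Epor in LSK. The summed level of the 17 erythroid genes found in the table was 80.8 to 195.7 FPKM in WT LSK, 131.3 to 175.2 for Dnmt3a-/-, 255.2 and 343.4 for Bcor-/-, and 6566 and 24341 in the double knockout. All 16 tested genes of that list were called higher in double knockout LSK, and 8 of 16 in Bcor-/- LSK. The stem and progenitor list fell at the same time, from 1134.6 to 1333.3 FPKM in WT LSK to 148.4 and 385 in the double knockout, with 9 of 12 genes called lower. In Bcor-/- LSK it stood at 856.8 and 532.4 FPKM, below every WT library, with 5 of 12 called lower. In Bcor-/- LSK the granulocyte and monocyte list also stood higher, at 19121 and 27315 FPKM against 3683 to 13915 in WT, with 6 of 14 genes called higher and 1 lower. The sum of the T and NK cell list was 458.3 and 619.7 FPKM there against 217.9 to 242.6, but 1 of its 10 genes was called higher and their median log2 fold change was -0.16. Of all genes tested in LSK, 15.0% were called higher and 13.3% lower in the double knockout, and 7.20% and 6.03% in Bcor-/-. None of the erythroid genes was listed at 0 in all libraries of a genotype. The part of cell composition in the Epor values was not tested.

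Jak2, the kinase bound to EPOR and to several other receptors, was not called in either cell type of any genotype. In LSK it was 30.8, 33.8 and 30.6 FPKM in WT, 30.6, 38.3 and 35.3 for Dnmt3a-/- and 29.1 and 29.6 for Bcor-/-. The double knockout gave 32.9 FPKM in replicate 1, within the WT range, and 59.2 FPKM in replicate 2, the highest of the 10. The log2 fold change of 0.46 against WT (SE 0.21, adjusted p = 0.132) was not called, but without replicate 1 it was 0.88 and passed. In MEP, Jak2 was 45.0, 42.4 and 43.2 FPKM in WT, 38.4, 44.2 and 42.5 for Dnmt3a-/-, 40.3 and 44.0 for Bcor-/-, and 34.9 and 54.9 in the double knockout, so that the 2 double knockout mice enclosed all others. The effect of the double knockout on Jak2 in LSK exceeded that in MEP by 0.45 on the log2 scale (SE 0.14, adjusted p = 0.0452), and in both mice the sign was the same, 0.55 and 0.36 with the other left out. This difference did not pass with 1 variance per genotype or when the mouse was not taken into account.

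Stat5a fell in the double knockout in both cell types, and the 2 mice gave almost the same value. In LSK it was 41.4, 41.7 and 48.3 FPKM in WT, 47.1, 37.6 and 42.4 for Dnmt3a-/-, 37.3 and 42.3 for Bcor-/-, and 26.8 and 24.6 in the double knockout. In MEP it was 53.8, 57.3 and 54.7 FPKM in WT, 61.6, 60.9 and 59.0 for Dnmt3a-/-, 62.3 and 61.7 for Bcor-/-, and 27.3 and 27.5 in the double knockout. No double knockout library overlapped any other genotype in either cell type. The log2 fold change against WT was -0.75 in LSK (SE 0.13, adjusted p = 0.00275) and -0.99 in MEP (SE 0.08, adjusted p = 0.000376), and the 2 effects differed by 0.24 (SE 0.15, adjusted p = 0.285), which was not called. Stat5a also fell against Bcor-/-, by 0.61 on the log2 scale in LSK and by 1.15 in MEP. The LSK call was lost without Bcor-/- replicate 2, at -0.52, and without double knockout replicate 2. Of the 50-base stretches of its transcripts, 8.21% also occur in Stat5b, and exons of Stat3 overlap it on the opposite strand.

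Stat5b, the near copy of Stat5a and its neighbour, moved less. It was 51.4, 48.4 and 53.3 FPKM in WT LSK, 54.5, 44.9 and 49.6 for Dnmt3a-/-, 41.8 and 42.1 for Bcor-/-, and 43.0 and 43.5 in the double knockout. The 4 libraries that lack Bcor therefore lay below all WT and Dnmt3a-/- LSK libraries, but by less than the 1.5-fold limit, with log2 fold changes of -0.23 in the double knockout (SE 0.11, adjusted p = 0.133) and -0.28 in Bcor-/- (SE 0.11, adjusted p = 0.146). In MEP it was 41.9, 40.1 and 40.8 FPKM in WT, 45.5, 43.4 and 41.5 for Dnmt3a-/-, 45.4 and 45.1 for Bcor-/-, and 34.5 and 36.6 in the double knockout. In MEP the double knockout was lowest, at a log2 fold change of -0.20 (SE 0.09, adjusted p = 0.111). The Bcor-/- effect on Stat5b was lower in LSK than in MEP by 0.42 (SE 0.14, adjusted p = 0.165) and passed at the unadjusted p alone. In that comparison both Bcor-/- replicates lay below WT in LSK and above it in MEP.

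Cish encodes CIS, which binds phosphorylated receptors and blocks STAT5, and it rose in the double knockout with a wide gap between the mice. In LSK it was 7.10, 7.90 and 7.54 FPKM in WT, 7.51, 6.42 and 6.52 for Dnmt3a-/- and 6.38 and 4.01 for Bcor-/-. The double knockout LSK libraries were 8.58 and 30.3 FPKM, above all WT libraries, the first by little. The log2 fold change was 1.02 (SE 0.41, unadjusted p = 0.0322, adjusted p = 0.0896), and it was 0.17 and not called without replicate 2. The LSK call was also lost with a replicate block and without any one of the 3 WT libraries. Exons of Gm17040 and Gm17041 overlap Cish on the opposite strand. In MEP, Cish was 3.73, 1.37 and 2.06 FPKM in WT, 1.54, 0.836 and 3.10 for Dnmt3a-/-, 5.71 and 4.76 for Bcor-/-, and 7.18 and 96.5 in the double knockout. There the log2 fold change was 3.12 (SE 0.87, adjusted p = 0.0263), 1.33 without replicate 2 and 4.91 without replicate 1, called each time. Both Bcor-/- MEP libraries lay above the WT range as well, but with a log2 fold change of 0.94 (SE 0.87, adjusted p = 1) that was not called.

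Socs2 had the largest log2 fold change of the 9 genes in the double knockout by the mean of the 2 mice, and here the order of the mice was turned. In MEP of replicate 2 alone, Cish, Pim1 and Socs3 exceeded it, at 4.91, 3.60 and 3.43 against 2.38. SOCS2 is an inhibitor that tags receptors for degradation and is best known from growth hormone signalling. In LSK it was 1.91, 2.81 and 1.65 FPKM in WT, 2.95, 2.24 and 1.92 for Dnmt3a-/-, 3.56 and 1.91 for Bcor-/-, and 67.8 and 20.7 in the double knockout. In MEP it was 0.433, 0.602 and 0.616 FPKM in WT, 1.25, 0.221 and 0.786 for Dnmt3a-/-, 3.33 and 1.62 for Bcor-/-, and 69.8 and 7.08 in the double knockout. Both double knockout libraries exceeded all others in each cell type, and replicate 1 was the higher one. Against WT the log2 fold change was 3.65 in LSK (SE 0.43, adjusted p = 0.000401) and 3.95 in MEP (SE 0.76, adjusted p = 0.00567), both called under each alternative tried. The 2 effects differed by -0.30 (SE 0.39, adjusted p = 0.602), which was not called. Both Bcor-/- MEP libraries were above the WT and Dnmt3a-/- ranges, at a log2 fold change of 1.12 (SE 0.76, adjusted p = 1) that did not pass.

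Socs3, which encodes a strong inhibitor of JAK kinases at the receptors for interleukin 6 and granulocyte colony-stimulating factor, rose in MEP. There it was 2.91, 1.63 and 3.33 FPKM in WT, 5.99, 3.08 and 3.44 for Dnmt3a-/-, 6.93 and 9.22 for Bcor-/-, and 13.0 and 37.3 in the double knockout. The MEP libraries thus ordered as double knockout, Bcor-/-, Dnmt3a-/- and WT, and the first 2 groups overlapped no other. The log2 fold change was 2.71 in the double knockout (SE 0.43, adjusted p = 0.00262) and 1.35 in Bcor-/- (SE 0.43, unadjusted p = 0.0129, adjusted p = 0.598). In LSK, Socs3 was 33.5, 18.8 and 22.1 FPKM in WT, 31.2, 30.9 and 50.9 for Dnmt3a-/-, 23.5 and 23.0 for Bcor-/-, and 18.8 and 115 in the double knockout, where replicate 1 lay at the lowest WT level and replicate 2 was the highest library. The log2 fold change there was 0.93 (SE 0.61, adjusted p = 0.280), and it was 2.21 without replicate 1 and -0.34 without replicate 2.

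Socs1, an inhibitor that blocks JAK kinases directly and is induced by interferons, was scarce. In LSK it was 1.14, 2.49 and 3.01 FPKM in WT, 2.29, 1.77 and 2.06 for Dnmt3a-/-, 2.26 and 1.94 for Bcor-/-, and 2.75 and 11.3 in the double knockout, where replicate 1 lay within the WT range. Its log2 fold change of 1.13 passed at the unadjusted threshold (SE 0.46, adjusted p = 0.0953), and was 0.27 and not called without replicate 2. The call was lost in 11 of 20 alternatives, among them the adjusted p, 1 variance per genotype, the compared genotypes alone and leaving out WT replicate 1 or 2, any Dnmt3a-/- library or any Bcor-/- library. In MEP, Socs1 ranged from 0.421 to 0.820 FPKM in WT and was listed at 0 in 1 Dnmt3a-/- library. It was 0.825 and 0.244 FPKM in Bcor-/- MEP and 0.851 and 2.24 in the double knockout, and no test was made there.

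Pim1, a STAT5 target that encodes a kinase for survival and growth, was the most abundant member in LSK. Like Cish, it was highest in double knockout replicate 2. It was 201, 153 and 156 FPKM in WT LSK, 200.4, 205 and 190 for Dnmt3a-/-, 129.9 and 101 for Bcor-/-, and 108 and 455 in the double knockout. Both Bcor-/- LSK libraries and double knockout replicate 1 were below the WT range, and replicate 2 was above it, so that the log2 fold change of 0.39 (SE 0.47, adjusted p = 0.563) was 1.43 without replicate 1 and -0.64 without replicate 2. In MEP, Pim1 was 55.2, 33.5 and 44.6 FPKM in WT, 57.2, 35.0 and 37.2 for Dnmt3a-/-, 56.7 and 59.0 for Bcor-/-, and 71.7 and 539 in the double knockout. Both double knockout MEP libraries were above all others. The log2 fold change was 2.15 (SE 0.68, adjusted p = 0.0414), 0.71 without replicate 2 and 3.60 without replicate 1, called each time. In the fit of the compared genotypes alone the call was lost. Exons of Gm26885 overlap Pim1 on the opposite strand.

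**Figure D2:**
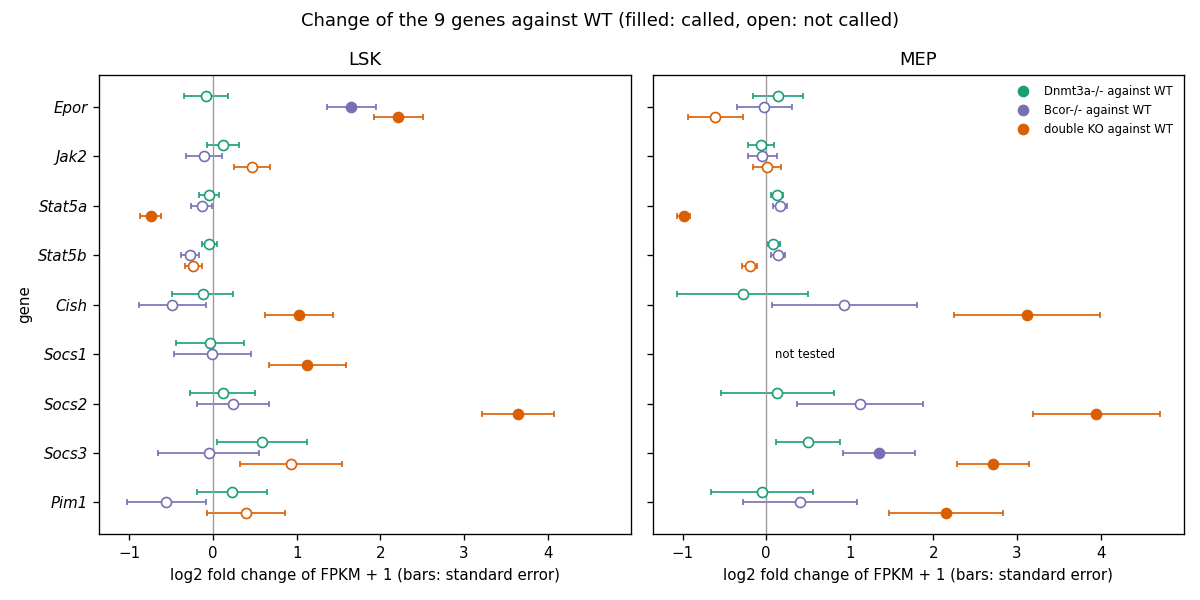
Log2 fold change of FPKM + 1 against WT with its standard error for the 9 genes in LSK and MEP, with filled points for called genes (unadjusted p under 0.05 and fold change above 1.5). Epor is the only gene called in Bcor-/- LSK, at 1.65, Socs3 the only one in Bcor-/- MEP, at 1.35, and Stat5a is the only one called lower in the double knockout, at -0.75 and -0.99.

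The count of calls in the double knockout against WT was 5 of 9 in LSK, with 4 higher (Epor, Cish, Socs1, Socs2) and 1 lower (Stat5a), where 15.0% of all tested genes were called higher and 13.3% lower. In MEP it was 5 of 8, with 4 higher (Cish, Socs2, Socs3, Pim1) and Stat5a lower, where 18.5% of all tested genes were called higher and 12.4% lower. The median log2 fold change of the members was 0.93 in LSK and 1.08 in MEP, and that of all tested genes 0.02 in each. With an adjusted p under 0.05 in place of the unadjusted one, 3 genes (Epor, Stat5a, Socs2) remained in LSK and 5 in MEP. Of all tested genes, 2836 of 11952 remained in LSK and 2751 of 10933 in MEP. Without double knockout replicate 1 the LSK log2 fold changes of Socs3 and Pim1 were 2.21 and 1.43, and without replicate 2 they were -0.34 and -0.64. The LSK count was 3 without WT replicate 1 or 2, where 3091 and 3327 of all genes were called, against 3383 in the main fit. The smallest p that exact permutation allows for groups of 2 and 3 is 0.1, so that the calls rest on the spread that limma pools over the 4 genotypes. The replicates are separate mice, apart from the 1 Bcor-/- library labelled with 2.

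The single knockouts were set against WT in the same way. In Bcor-/- LSK, Epor was called and the other 8 were not, where 7.20% of all tested genes were called higher and 6.03% lower, so that the count of 1 in 9 is near that of all genes. In Bcor-/- MEP, Socs3 was called and the other 7 were not, where 1.23% of all genes were called higher and 1.53% lower. The Socs3 call was lost with the adjusted p, where 7 of all 10933 genes were called. Its log2 fold change was 1.16 without Bcor-/- replicate 2. Cish and Socs2 joined it, for 3 calls, in the fit of the compared genotypes alone, where 448 of all genes were called, against 302 in the main fit. In Dnmt3a-/-, limma called 0 of 9 genes in LSK and 0 of 8 in MEP, with 0 at an unadjusted p under 0.05 in either. Of all genes, 0.443% and 0.412% were called. The study reports only partial deletion of Dnmt3a in this genotype. Its Dnmt3a RNA overlapped WT in LSK, but a whole-gene FPKM cannot tell how far the deletion went. The counts of Dnmt3a-/- therefore cannot show the effect of a full loss. Socs3 had the largest change of the 9 there, with log2 fold changes of 0.58 in LSK (SE 0.54) and 0.50 in MEP (SE 0.38). Immediate-early genes summed to 8424 to 9058 FPKM in Dnmt3a-/- LSK, above every WT library, with 3 of 16 called higher, and their part in the Socs3 value was not tested.

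The double knockout was also set against Bcor-/-. These groups differ by the Dnmt3a knockout and by the leukemia that the study gives for the double knockout, which cannot be told apart here. In LSK, 4 of 9 genes were called (Socs2 at 3.41, Cish at 1.51 and Socs1 at 1.13 higher, Stat5a lower), where 30.6% of all genes were called. In MEP, 5 of 8 were called, where 27.9% of all genes were: Socs2 at 2.83, Cish at 2.18, Pim1 at 1.75 and Socs3 at 1.36 were higher on the log2 scale and Stat5a was lower. Of these, the calls of Cish and Pim1 in MEP had unadjusted p-values of 0.0494 and 0.0455 in limma, and were lost in most of the alternative fits. The Socs1 call in LSK was lost in 16 of 20, and that of Socs3 in MEP in 5 of 21. The Socs3 value in MEP was 0.64 to 2.09 when 1 library was left out. The calls of Cish in LSK and Socs2 in MEP were lost with the compared genotypes alone. With 1 library left out, Cish ran from 0.66 to 2.36 in LSK and from 0.40 to 3.97 in MEP. Socs2 ran from 2.58 to 4.24 in LSK and from 1.26 to 4.39 in MEP, and Pim1 from 0.31 to 3.20 in MEP. The MEP count was 3 without any one WT or Dnmt3a-/- library, where 2848 to 2943 of all 10933 genes were called. The LSK count was 4 without WT replicate 1 and 3 without any other WT or Dnmt3a-/- library, where 3498 to 3553 of all 11952 genes were called. These comparisons share the double knockout libraries with those against WT and are not independent of them.

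**Figure D3:**
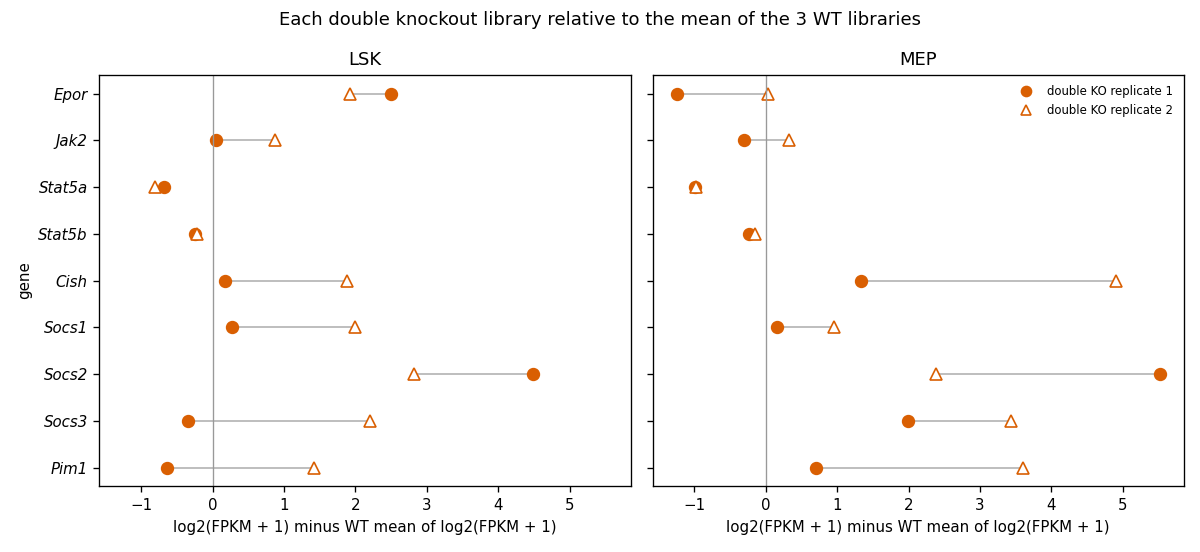
Each double knockout library as its log2(FPKM + 1) minus the WT mean of log2(FPKM + 1), for the 9 genes in LSK and MEP, with filled circles for replicate 1 and open triangles for replicate 2 (the same 2 mice in both panels). Stat5a and Stat5b lie close together in the 2 mice, Cish, Socs1, Socs3, Pim1 and Jak2 are higher in replicate 2, and Socs2 is higher in replicate 1, at 4.48 against 2.81 in LSK and 5.51 against 2.38 in MEP.

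The gap between the 2 double knockout mice repeated itself in both cell types. On the log2 scale replicate 2 exceeded replicate 1 in LSK by 1.71 for Cish, 1.72 for Socs1, 2.55 for Socs3, 2.06 for Pim1 and 0.83 for Jak2. In MEP the gap was 3.57 for Cish, 1.45 for Socs3, 2.89 for Pim1 and 0.64 for Jak2. For Socs2 it was -1.67 in LSK and -3.13 in MEP. Stat5a differed by -0.12 and 0.01 and Stat5b by 0.02 and 0.08. Epor turned its sign, with -0.58 in LSK and 1.28 in MEP. Of all tested MEP genes, 1.59% had a larger gap than Cish, 2.47% than Socs2, 3.10% than Pim1, 13.2% than Socs3, 16.6% than Epor and 39.7% than Jak2. In LSK the share was 3.41% for Socs3, 5.51% for Pim1, 7.72% for Socs1, 7.84% for Cish, 8.15% for Socs2, 24.4% for Jak2 and 37% for Epor. Cish was 40.4 times its WT mean in MEP of replicate 2 and 3.01 times in that of replicate 1, and Socs2 was 12.9 times and 127 times.

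Several marker lists separated the same 2 mice. The erythroid sum in double knockout MEP was 4628 FPKM in replicate 1 and 99055.5 in replicate 2, against 1448 to 2423 in WT MEP. In LSK replicate 2 was the higher one too. Of the 16 erythroid genes tested in MEP, 6 were called higher in the double knockout and 0 lower. Not all rose in replicate 1, where Gata1 and Klf1 in MEP were 0.37 and 0.43 times the WT mean. In MEP of replicate 2 these 2 genes were 1.25 and 1.34 times the WT mean. The macrophage list of 10 genes stood at 1834 FPKM in LSK and 998.2 in MEP of replicate 1, against at most 385.9 and 71.1 in WT, and at 60.6 and 42.9 in replicate 2. The B cell list of 9 genes stood at 3507 and 2859 FPKM in LSK and MEP of replicate 1 and at 1369.7 and 155.1 in those of replicate 2, with WT at most 110.8 and 187.7. Immediate-early genes summed to 1007 FPKM in LSK of replicate 1 and 7185 in that of replicate 2, against 4185 to 5910 in WT, and in MEP to 739.6 and 2759 against 707 to 1506 in WT. The granulocyte and monocyte list of 14 genes was higher in MEP of replicate 2 as well, at 7057 FPKM in replicate 1 and 15619.7 in replicate 2 against 329.4 to 807.1 in WT, with 10 of 14 genes called higher. The T and NK cell list stood at 149.1 and 290.9 FPKM in double knockout MEP against 47.2 to 73.9 in WT, with 7 of 8 tested genes called higher, and in LSK at 150 and 461.1 against 217.9 to 242.6, with 9 of 10 called higher and 1 lower. None of the genes of these 6 lists was listed at 0 in both double knockout libraries of a cell type. The megakaryocyte list was lower in both mice, at 21.6 and 71.2 FPKM in LSK against 110.8 to 133.3 in WT (5 of 10 tested genes called lower) and at 29.3 and 85.6 in MEP against 105.7 to 374 (4 of 10 called lower), and 1 of its 12 genes was listed at 0 in all LSK libraries. The part of other cells, and of handling, in the levels of Socs2, Cish, Socs3 and Pim1 was not tested.

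Whether an effect differed between the cell types was tested on the LSK minus MEP difference of each mouse. For the double knockout, 5 of 8 genes passed, where 37.1% of all genes did. The effect was more positive in LSK for Epor and Jak2, while Cish (-2.10, SE 0.55, adjusted p = 0.0294), Socs3 (-1.78, SE 0.49, adjusted p = 0.0356) and Pim1 (-1.76, SE 0.33, adjusted p = 0.0106) had the more positive effect in MEP. Leaving out replicate 1 or 2 of the double knockout gave 1.89 or 3.75 for Epor, -3.03 or -1.16 for Cish, -1.23 or -2.33 for Socs3 and -2.17 or -1.34 for Pim1, each still past the threshold. For Bcor-/-, 5 of 8 genes passed at the unadjusted p, where 17.9% of all genes did, and 0 with the adjusted p. All 5 were lower in LSK than in MEP relative to WT: Cish by -1.42, Socs3 by -1.40, Pim1 by -0.96, Socs2 by -0.88 and Stat5b by -0.42, with adjusted p from 0.165 to 0.276. With 1 mouse left out these values ran from -1.73 to -1.16 for Cish, -1.60 to -1.20 for Socs3 and -1.17 to -0.75 for Pim1. Those of Socs2 ran from -1.02 to -0.75 and those of Stat5b from -0.44 to -0.39. When the mouse was not taken into account, Epor and Socs3 passed for the double knockout and Epor and Stat5b for Bcor-/-. Of all 10773 genes, 3179 and 1356 passed there. With 1 variance per genotype, Jak2 and Socs3 did not pass for the double knockout. The double knockout and Bcor-/- comparisons share the WT mice.

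The levels of the 9 genes in WT, compared per transcript length, ran in LSK from Pim1 at 170 ± 27.1 FPKM (SD, n = 3) through Stat5b at 51.0 ± 2.45, Stat5a at 43.8 ± 3.85, Jak2 at 31.7 ± 1.77 and Socs3 at 24.8 ± 7.70 to Cish at 7.52 ± 0.403, Epor at 3.93 ± 1.08, Socs1 at 2.22 ± 0.963 and Socs2 at 2.12 ± 0.607. The ranges of Jak2 and Socs3, of Epor and Socs1 and of Socs1 and Socs2 overlapped in LSK, and those of the other neighbours did not. In MEP, Epor led at 94.7 ± 19.0 FPKM, followed by Stat5a at 55.3 ± 1.80, Pim1 at 44.4 ± 10.8, Jak2 at 43.5 ± 1.34 and Stat5b at 40.9 ± 0.909, and Socs3 at 2.62 ± 0.887, Cish at 2.39 ± 1.21, Socs1 at 0.676 ± 0.222 and Socs2 at 0.551 ± 0.102 were near the lower end. There the ranges of Stat5a and Pim1, Pim1 and Jak2, Socs3 and Cish, and Socs1 and Socs2 overlapped. WT MEP thus held the receptor at high level and the inhibitors at low level. In double knockout MEP the mean of the 2 mice was 305 FPKM for Pim1, 51.8 for Cish, 38.4 for Socs2 and 25.1 for Socs3, with the gap between mice given above.

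The wider JAK-STAT list held 94 other genes by role. In double knockout LSK 32 of 89 tested genes were called higher and 12 lower, with a median log2 fold change of 0.22, and in MEP 46 of 87 were called higher and 5 lower, with a median of 0.83. Of 22 receptor and ligand genes tested in LSK, 8 were higher and 6 lower, and of 20 in MEP, 14 were higher and 4 lower. Kinases and STATs gave 2 of 8 higher in LSK and 5 of 8 in MEP, with none called lower in either. The inhibitors outside the members gave 7 of 21 higher and 1 lower in LSK and 8 of 21 higher in MEP, adaptors 3 of 17 higher and 1 lower in LSK and 6 of 17 higher in MEP, and target genes 12 of 21 higher and 4 lower in LSK and 13 of 21 higher and 1 lower in MEP. In Bcor-/- LSK the list gave 3 higher and 6 lower calls of 89, and Bcor-/- MEP gave 3 of 87 higher and 0 lower ones. The shares over all tested genes, for reading these counts, were 15.0% higher and 13.3% lower in double knockout LSK, 18.5% and 12.4% in double knockout MEP, 7.20% and 6.03% in Bcor-/- LSK, and 1.23% and 1.53% in Bcor-/- MEP. The list was drawn up with earlier results of these data known, so its counts are a description.

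**Figure D4:**
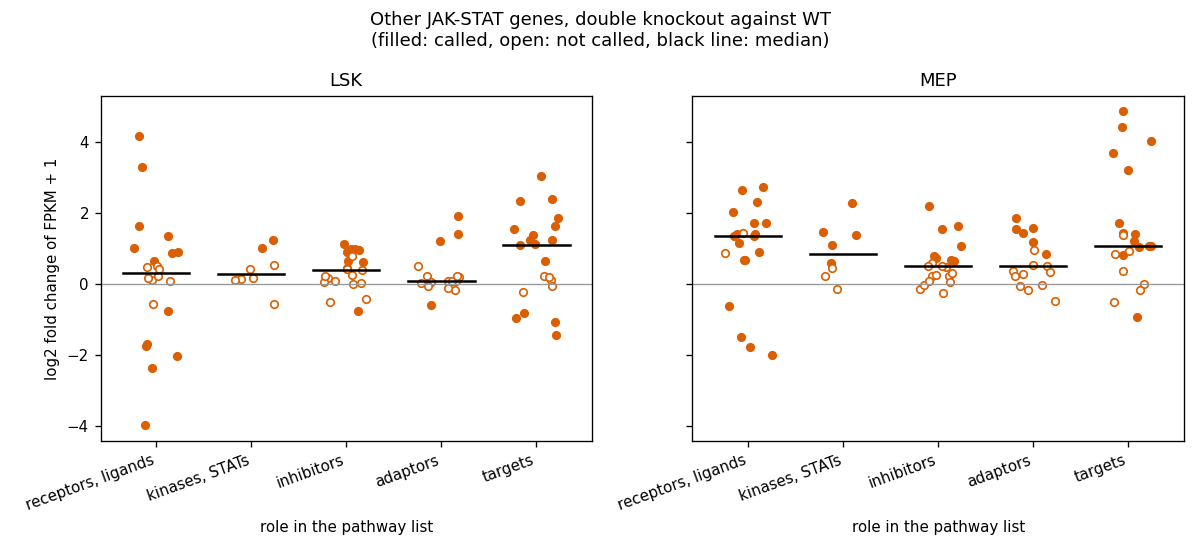
Log2 fold change of FPKM + 1 between double knockout and WT for the tested genes of the wider JAK-STAT list, grouped by role, with filled points for called genes and a line at the median of each role. In MEP the receptor and ligand group has the highest median, 1.35, and in LSK the target genes do, at 1.09.

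Among receptors, the changes ran both ways. Kit, the stem cell factor receptor that is also one of the sort markers, fell from 148 to 174 FPKM in WT LSK to 47.7 and 19.4, by 2.37 on the log2 scale, and in MEP by 1.51. Csf3r, the receptor of granulocyte colony-stimulating factor, fell by 2.05 in LSK. In MEP, Tfr2, a transferrin receptor that associates with EPOR, fell by 2.01. Lifr, the receptor of leukemia inhibitory factor, rose by 3.30 in LSK, to 7.27 FPKM in replicate 1 and 26.5 in replicate 2. Il7r, the interleukin 7 receptor of lymphoid precursors, rose from 2.58 to 5.83 FPKM in WT LSK to 194 and 32.7, a log2 fold change of 4.18. The B cell list above was higher in the mouse with the higher Il7r. Epo, the ligand, was listed at 0 in all 20 libraries.

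The kinase, phosphatase and target genes below were named by rule. Fam132b, Podxl and Lcn2 were named for the size of their called rise, so their direction was fixed by that rule. Jak1 was 81.3 to 85.0 FPKM in WT LSK and 98.0 and 125 in the double knockout, and its log2 fold change was 0.42 in LSK, under the fold limit, and 0.60 in MEP, where it was called. Ptpn6, the phosphatase SHP-1 that switches EPOR off, rose by 0.62 in LSK (adjusted p = 0.00475), and in MEP had a log2 fold change of 0.51 that was not called. Bcl2l1, the survival gene downstream of STAT5 in erythroblasts, was 9.08 to 10.5 FPKM in WT LSK and 35.1 and 39.7 in the double knockout, a log2 fold change of 1.85 (adjusted p = 7.83e-05). In MEP, Bcl2l1 was 4.69 to 6.17 FPKM in WT and 22.9 and 296 in the double knockout, higher in the mouse with the higher Cish and Pim1. Fam132b, which encodes erythroferrone, an erythroblast hormone that restrains hepcidin, rose by 3.05 in LSK and 4.03 in MEP. Podxl, a surface sialomucin, rose by 4.42 in MEP, and Lcn2, an iron-carrying secreted lipocalin, by 4.87. The granulocyte and monocyte list was higher in the same MEP libraries, and its part in the Lcn2 value was not tested. In Bcor-/-, Bcl2l1 was not called, with log2 fold changes of -0.15 in LSK and 0.06 in MEP.

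The genes most like each member were found by Pearson's r of log2(FPKM + 1) over the 20 libraries, after the mean of each cell type was subtracted, among the 10773 genes tested in both. The libraries share mice and the double knockout contrast, so r is a description. Nearest to Epor were Klf1 (r = 0.98), Ces2g (0.97), Slc38a5 (0.96), Aqp1 (0.96) and Mt2 (0.96), and over the 16 libraries without the double knockout these stood at 0.95, 0.94, 0.92, 0.92 and 0.95. Klf1 encodes a transcription factor of erythroid cells. Klf1 was 1.96 to 6.05 FPKM in WT LSK, 16.1 and 35.4 in Bcor-/- and 52.0 and 35.3 in the double knockout, in the same order of libraries within each mutant genotype as Epor. Nearest to Cish were Tmod3 (r = 0.94), Ubap1 (0.94), Hipk1 (0.94), Xpo7 (0.94) and Tcp11l2 (0.94), but without the double knockout libraries their r was 0.45 to 0.61. The nearest gene was Tsc22d2 for Pim1 (0.98, and 0.89 without the double knockout), Zhx2 for Socs2 (0.97 and 0.79), Trib1 for Socs3 (0.91 and 0.59), Atad3a for Stat5a (0.97 and 0.49), Trappc9 for Stat5b (0.86 and 0.79) and Whsc1l1 for Jak2 (0.90 and 0.66). Socs1 was outside this search because it was not tested in MEP.

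**Figure D5:**
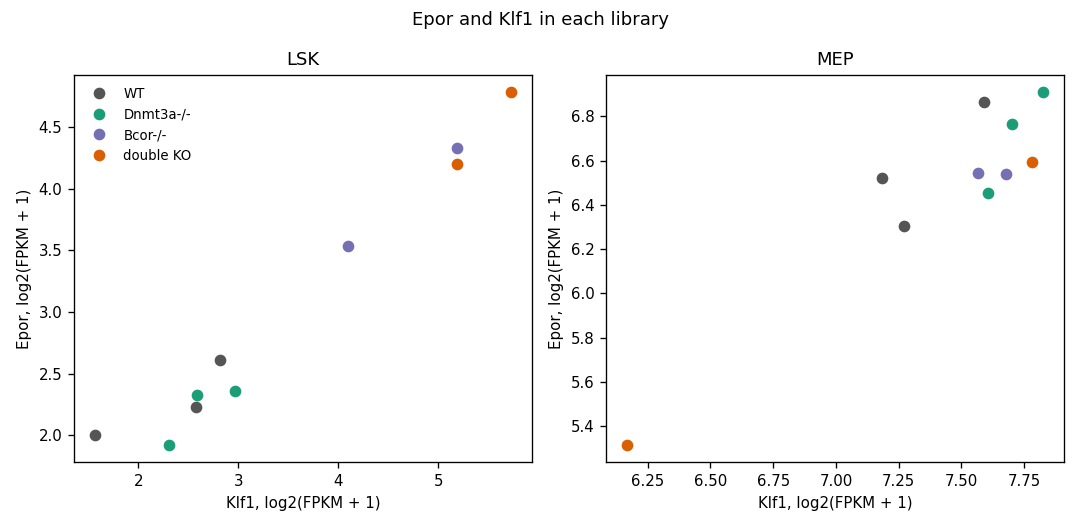
Epor against Klf1 in each library, both as log2(FPKM + 1), with LSK on the left and MEP on the right and colours for the genotypes (axes do not start at 0 and differ between panels). The 4 LSK libraries that lack Bcor lie above the 6 others on both axes, and in MEP double knockout replicate 1 has the lowest value of both, at 38.9 FPKM for Epor and 70.9 for Klf1.

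Among the members themselves, Cish, Socs3 and Pim1 formed the closest trio over the 20 libraries, with r = 0.93 for Cish and Pim1, 0.89 for Socs3 and Pim1 and 0.84 for Cish and Socs3, and 0.61, 0.70 and 0.47 over the 16 libraries without the double knockout. Stat5a and Stat5b had r = 0.78 both with and without the double knockout. Epor was not close to any of them, its r ranging from -0.35 with Stat5b to 0.27 with Jak2 over the 20 libraries. Without the double knockout Epor and Pim1 had r = -0.79. Stat5a ran opposite to Socs2 (-0.84) and Cish (-0.73) over all 20, and at 0.15 and 0.13 without the double knockout.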

How the data were processed

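RNA was measured by polyA mRNA sequencing of sorted LSK and MEP cells, 10 libraries each. The authors aligned the reads and deposited gene-level FPKM values, and the submitters' processing notes name STAR 2.5.1b, SAMtools 1.9, Cufflinks 2.2.1 and the genome build mm9. Whether counting used strand is not given in the sources used here. FPKM is not a count, so no count model was used. The depth of each library is known only relative to the others. Within each cell type, genes whose FPKM averaged 1 or more were tested (11952 in LSK, 10933 in MEP), on log2(FPKM + 1) with limma 3.58.1 in R 4.3.3, with the 4 genotypes in 1 fit and a mean-variance trend. The + 1 makes fold changes of low genes smaller than those of FPKM itself. As in the study, a call needed a fold change over 1.5 and p under 0.05 without adjustment, and Benjamini-Hochberg adjusted p-values over all tested genes are given beside the calls. Differences between cell types were tested on the LSK minus MEP value of each mouse, at an unadjusted p under 0.05. LSK and MEP were paired by the mouse number in the labels.

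The 9 genes, the wider list and the marker lists were chosen with earlier results of these data known. All 9 genes were named whatever their values, and of the wider list the 3 genes with the largest called change in each direction and cell type, with Epo, Kit, Bcl2l1, Jak1 and Ptpn6; 1 gene that this rule names is not reported here. For Epor and Cish the 5 most similar genes were named, and 1 for each other gene tested in both cell types. Promoter sequences are RefSeq's of GRCm38.p6, and gene overlaps and shared 50-base stretches were taken from GENCODE vM21, while the FPKM values rest on mm9, so no coordinate of the expression tables was used. The fit was tested on simulated data. Alternatives covered the pseudocount, filter, scaling, samples in the fit, variance model, replicate block, thresholds and each library left out. Python 3.11.15, pandas 2.3.3 and matplotlib 3.10.9 served for sequences and plots.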

Additional observations from a re-analysis of the deposited data

Results flagged for a closer look

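The effect of a genotype differed between LSK and MEP, by a test on the difference within each mouse, for the following genes, each value being the log2 fold change against WT in LSK minus that in MEP. For the double knockout the difference was 2.82 for Epor, 0.45 for Jak2, -2.10 for Cish, -1.78 for Socs3 and -1.76 for Pim1, each with an adjusted p under 0.05 in limma. Jak2 and Socs3 did not pass with 1 variance per genotype, and Jak2, Cish and Pim1 did not pass with no mouse term. For Bcor-/- it was -0.42 for Stat5b, -1.42 for Cish, -0.88 for Socs2, -1.40 for Socs3 and -0.96 for Pim1, which passed at the unadjusted p only. Of these, only Stat5b passed with no mouse term. Both genotypes have 2 libraries per cell type, 1 of Bcor-/- labelled with 2 mouse numbers, and are set against the same 3 WT mice.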

How the results depend on the processing

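Of 1728 recomputed values, 1538 kept their direction and their side of the threshold. The members called in LSK were 1 in Bcor-/- and 0 in Dnmt3a-/- under each alternative run, and 0 in Dnmt3a-/- MEP. In double knockout LSK against WT the count of 5 was 3 with the compared genotypes alone, 3 with the adjusted p and 3 to 8 with 1 library left out, and in MEP the latter range was 5 to 6. Against Bcor-/- the LSK count of 4 was 2 with the compared genotypes alone and 2 to 7 with 1 library left out (7 without double knockout replicate 1, 2 without Bcor-/- replicate 2). The MEP count of 5 was 3 with no filter, with median centring, with no trend and with 1 variance per genotype. All genes called there were 3473 (of 16492), 3378, 3036 and 1946, against 3045 in the main fit. It was 1 with the compared genotypes alone (2010 of all genes) and 2 with the adjusted p (2222 of all genes). With 1 WT or Dnmt3a-/- library left out it was 3, where 2848 to 2943 of all genes were called. In Bcor-/- MEP the count of 1 was 3 with the compared genotypes alone and with 1 variance per genotype. Of all genes, 448 and 482 were called there, against 302 in the main fit. It was 0 with the adjusted p (7 of all genes) and 1 with 1 WT or Dnmt3a-/- library left out (244 to 351 of all genes). The wider list gave 44 calls in double knockout LSK and 29 at a fold change above 2, where 3383 and 1973 of all genes were called. In MEP it gave 51, and 33 with 1 variance per genotype, where 3376 and 1980 of all genes were called. Of the differences between cell types, the double knockout count of 5 was 3 with 1 variance per genotype, where 1437 of all genes passed, against 3999. With 1 WT or Dnmt3a-/- mouse left out it was 5, where 3079 to 3806 of all genes passed. The Bcor-/- count of 5 was 0 with the adjusted p, where 27 of all genes passed, against 1931 at the unadjusted p. With 1 WT or Dnmt3a-/- mouse left out the Bcor-/- count was 3 to 5, where 1303 to 1785 of all genes passed.

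Whether replicate numbers pair mice across genotypes is not known. Deviations of same-numbered libraries from their group means had r of -0.06 to 0.09 in LSK and -0.19 to 0.34 in MEP. In a group of 2 libraries these deviations mirror each other, so r cannot settle it. With the number as a replicate block the counts against WT were 4 in double knockout LSK and 5 in MEP, and those against Bcor-/- were 3 in LSK and 3 in MEP. All genes called there were 3225, 3385, 3538 and 3031, in the same order. With no replicate block, that is with no mouse term, the counts of differences between cell types were 2 for the double knockout and 2 for Bcor-/-. Of all genes, 3179 and 1356 passed there. The block turned Socs1 (0.089) and Socs3 (0.035) in Bcor-/- LSK to above 0.

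Values near 0 changed sign with the scaling. Quantile normalization gave 0.11 for Socs1 in Bcor-/- LSK, 0.013 for Epor in Bcor-/- MEP, -0.013 for Stat5b in LSK against Bcor-/-, and for Jak2 in double knockout MEP -0.059 against WT and -0.030 against Bcor-/-. Median centring gave -0.051 for Stat5b in LSK against Bcor-/-, -0.15 and -0.093 for the same 2 comparisons of Jak2 and 0.030 for the Stat5b difference between cell types in the double knockout, and a pseudocount of 0.1 gave 0.024 for Socs1 in Bcor-/- LSK. The scalings moved the median of all genes in double knockout MEP from 0.02 to -0.17 (quantile) and -0.14 (median centring), and the share of higher calls there from 59.8% to 39.1% and 42.2%. Under quantile normalization Epor was called lower in double knockout MEP.

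With 1 library left out, these log2 values also changed sign. Double knockout LSK against WT: Socs3 -0.34 to 2.21, Pim1 -0.64 to 1.43. Against Bcor-/- they were -0.29 to 2.26 and -0.081 to 1.98. Double knockout MEP: Jak2 -0.31 to 0.33 and Epor -1.24 to 0.032 against WT, and -0.26 to 0.38 and -1.22 to 0.052 against Bcor-/-. Bcor-/- LSK: Socs1 -0.27 to 0.18, Socs3 -0.22 to 0.18, Socs2 -0.086 to 0.56. Bcor-/- MEP: Epor -0.15 to 0.13, Jak2 -0.11 to 0.016. Dnmt3a-/- LSK: Socs1 -0.30 to 0.15, Epor -0.22 to 0.087, Stat5a -0.13 to 0.032, Socs2 -0.0043 to 0.27, Stat5b -0.11 to 0.027. Dnmt3a-/- MEP: Pim1 -0.26 to 0.12, Socs2 -0.068 to 0.37. The Socs2 difference between cell types in the double knockout ran from -1.03 to 0.43. Where a left-out library leaves 1 in a group, it is assumed to vary like the other groups. Causes were not tested. Socs1 in MEP lay under 1 FPKM in 9 of 10 libraries, and Socs2 in MEP in all 3 WT and 2 of 3 Dnmt3a-/- libraries, so that few fragments may stand behind these values.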
